A study of Drosophila melanogaster with 8 samples.

Results

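The Rab GTPases are the largest family of small GTPases in the fly, and they were followed here at the transcript level in larval hemocytes on 2 diets. Members were taken by gene symbol, as every row whose FlyBase identifier maps to the name Rab or RabX followed by a number and at most one capital letter. This gave 26 of the 11769 genes listed, of which 25 had enough counts to be tested. Rab9D, with 0 to 4 counts per library, was not tested. The symbols Rab26, RabX2, RabX5 and Rab9E fit the name but were not analysed here. Rab32, also known as lightoid (ltd), is among the members under its current symbol.

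The libraries hold poly(A) RNA of Drosophila melanogaster hemocytes, sorted by flow cytometry for GFP from wild-type larvae in the third instar that carried hmlΔ>2xeGFP, in which the Hemolectin promoter drives the label. The high-sugar diet (HSD) was the sucrose-yeast medium with a 10x sucrose supplement and has 4 libraries, replicates 1, 2, 3 and 4. The control diet (CD) was the medium without the supplement and has 4 libraries, replicates 1, 3, 4 and 5. Larvae of both diets were bled 96 h after egg laying, 5 larvae per collection, and 20000 GFP-positive cells were sorted per replicate. The sort selects every cell with an active Hemolectin promoter fragment, so each library is a pool. The sources do not say whether the replicates are separate cultures, so the p-values reflect only how these libraries vary, and that variation may be technical.

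Rab proteins are molecular switches that mark the membranes of a cell. A guanine nucleotide exchange factor (GEF) loads a Rab with GTP on its membrane, the GTP-bound Rab recruits effectors such as tethers and motors, and a GTPase-activating protein (GAP) ends the cycle. The GDP dissociation inhibitor Gdi then lifts the Rab off the membrane, which it holds through a lipid group added with the help of the escort protein Rep. In hemocytes, phagocytosis and the secretion of matrix both run through this traffic: in flies Rab14 and Rab35 act in the uptake and maturation of phagosomes, Rab5 and Rab7 mark early and late endosomes, and Rab10 acts in the basal secretion of basement membrane in the follicle epithelium.

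Depth was alike across libraries, with 20817891 to 24733521 counts each. The labelled cell type was checked on markers: 11 plasmatocyte markers summed to 109586 to 123602 CPM in HSD libraries and to 76593 to 87399 CPM in CD libraries, where CPM is the count scaled to the TMM-adjusted size of its library (1e+06 counts). Of the 11 plasmatocyte markers 8 were called higher and 0 lower (edgeR adjusted p under 0.05). The shares over all tested genes were 14.4% higher and 11.6% lower. Markers of other hemocyte classes also differed between the diets. The 8 crystal cell markers summed to 30186 to 45841 CPM in HSD libraries and 23205 to 27476 CPM in CD libraries, with 7 higher, and the 8 lamellocyte markers to 879 to 909 CPM in HSD libraries and 704 to 813 CPM in CD libraries, with 5 higher and 1 lower. The 5 lymph gland markers summed to 906 to 992 CPM in HSD libraries and 479 to 588 CPM in CD libraries, with 1 of 3 tested higher. Epidermal and tracheal markers, 5 genes, summed to 118 to 143 CPM in HSD libraries and 228 to 347 CPM in CD libraries, with 1 of 4 tested lower. Fat body markers (7 genes) summed to 15.5 to 24.0 CPM in HSD libraries and 15.5 to 76.1 CPM in CD libraries, and muscle markers (8 genes) to 12.4 to 17.1 CPM in HSD libraries and 11.9 to 14.1 CPM in CD libraries. Of 6 neuronal markers, 5 (Rdl, Syt1, brp, nSyb and para) were under 1 CPM, and no marker of any list was at 0 in all libraries. CD replicate 1 stood apart from the other libraries on the second principal component of log2 CPM (25.1, with the others from −12.1 to 8.04), and HSD replicate 4 had the lowest summed crystal cell level of its diet, 30186 CPM, with the others from 41719 to 45841 CPM. The part these shifts play in the Rab results was not tested.

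The family was dominated by a few endosomal and Golgi members. Per kilobase of exonic length, which allows genes to be compared, Rab11 stood first at 279 ± 21.1 CPM per kb in HSD libraries and 305 ± 8.78 CPM per kb in CD libraries (SD, n = 4 each), above 96.9% of all tested genes. Rab2, Rab7, Rab5, Rab10 and Rab4 followed, with diet means from 53.9 to 102 CPM per kb. At the other end, Rab32, Rab27, Rab9, Rab23, Rab30, RabX4 and RabX6 had diet means from 1.96 to 5.24 CPM per kb. Rab3, the synaptic vesicle Rab, was nearly absent at 0.110 ± 0.0342 CPM per kb in HSD libraries and 0.171 ± 0.0564 CPM per kb in CD libraries. Together the 26 members held 0.184 to 0.202% of all counts in HSD libraries and 0.207 to 0.217% in CD libraries. On the TMM scale their summed level was 2033 ± 75.1 CPM in HSD libraries and 2013 ± 25.1 CPM in CD libraries, a difference smaller than the SD of the HSD libraries. The family thus held less of all counts on the high-sugar diet, while its TMM-scaled sum differed by less than its spread. The lower share of counts was not particular to the family. Without TMM scaling the median log2 fold change was −0.17 over all tested genes and −0.12 over the Rab members.

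**Figure D1:**
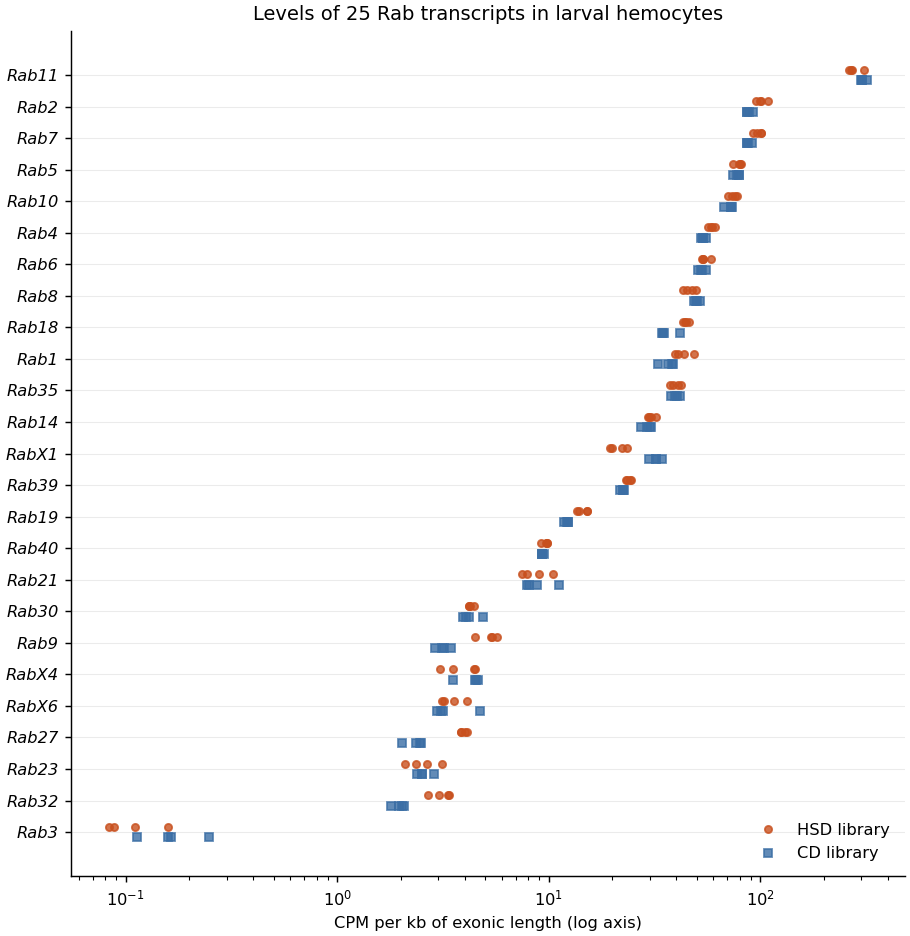
Level of each of the 25 tested Rab transcripts in CPM per kb of exonic length, on a log axis, with HSD libraries as circles and CD libraries as squares just below them. Rab11 lies far to the right at 279 CPM per kb in HSD and 305 CPM per kb in CD, and Rab3 far to the left at 0.110 CPM per kb in HSD and 0.171 CPM per kb in CD.

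Of the 25 tested members, 8 rose on the high-sugar diet (Rab1, Rab2, Rab7, Rab9, Rab18, Rab19, Rab27 and Rab32), 1 fell (RabX1) and 16 did not pass (edgeR quasi-likelihood test, Benjamini-Hochberg adjusted p under 0.05 over all 7844 tested genes). Of all tested genes 14.4% were called higher, 11.6% lower and 26.0% in either direction, so that the 36.0% of Rab members called lies above the share of all genes, a gap for which no test was made. The median log2 fold change of the members was 0.046, against −0.0050 over all tested genes. In pooled cells a lower share of cells of one type and less RNA per cell cannot be told apart. HSD and CD values were fully separated for 10 members that were higher and 1 that was lower on the high-sugar diet; among all tested genes this held for 15.1% higher, 12.9% lower and 28.0% in all. The 10 are the 8 called members, Rab4 and Rab39. Rab3 passed the low-count filter with 10 or more counts in 1 HSD and 3 CD libraries; each of the other tested members reached that in all 8.

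All 3 members of the late endosome and of lysosome-related organelles rose, Rab9, Rab32 and Rab7, with a median log2 fold change of 0.67. Rab9, which in mammals returns receptors from late endosomes to the Golgi, had 9.15, 8.68, 8.60 and 7.19 CPM in HSD replicates 1 to 4, against 4.64, 5.15, 5.02 and 5.51 CPM in CD replicates 1, 3, 4 and 5. No HSD value reached down to the CD range, and HSD replicate 4 came nearest to it. The fold was 1.65 (log2 fold change 0.72, SE 0.108, edgeR adjusted p = 0.000312), on 98 to 198 counts per library. Rab32, the Rab of pigment granules in the fly eye, had 13.7, 10.95, 12.4 and 13.8 CPM in HSD libraries, against 8.43, 7.36, 8.0 and 8.22 CPM in CD libraries. Here HSD replicate 4 was the highest library and replicate 2 the lowest of the HSD libraries, and the groups did not overlap. The fold was 1.59 (log2 fold change 0.67, SE 0.0942, edgeR adjusted p = 0.000196), and the lowest count was 178. Rab9 lies on chromosome 2L from 19432574 to 19435841 and Rab32 on 2R from 9177864 to 9186342 in dm6.

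Rab7, which drives fusion of late endosomes with lysosomes and stood at 97.8 CPM per kb on the high-sugar diet, against 5.24 for Rab9 and 3.12 for Rab32, rose by a smaller fold. It had 172, 164, 158 and 172 CPM in HSD libraries, against 148, 147, 156 and 148 CPM in CD libraries. The groups were separated by a narrow gap between HSD replicate 3 and CD replicate 4. The fold was 1.11 (log2 fold change 0.15, SE 0.0467, edgeR adjusted p = 0.0305). This call was lost when any one of CD3, CD5, HSD1, HSD2 and HSD4 was left out (edgeR adjusted p from 0.0558 to 0.0944), and under plain library size scaling the log2 fold change was −0.013 (edgeR adjusted p = 0.847; from 0.0102 to 1.00 over all alternatives).

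The exocytic group differed member by member, with 1 of 5 higher. Rab27, which in mammals tethers secretory and lysosome-related granules at the plasma membrane, had 6.28, 6.40, 6.00 and 6.05 CPM in HSD libraries, against 3.69, 3.88, 3.85 and 3.18 CPM in CD libraries. The HSD libraries lay close together and well above all CD libraries. Its fold of 1.69 was the largest rise of the family (log2 fold change 0.76, SE 0.114, edgeR adjusted p = 0.000336), although at 75 to 136 counts per library it was also one of the scarcest members. The gene lies on X from 1473884 to 1476974 in dm6. Rab3, which acts in the release of synaptic vesicles, did not pass. It had 9, 7, 7 and 12 counts in HSD libraries, against 9, 25, 14 and 14 counts in CD libraries (log2 fold change −0.65, SE 0.357, edgeR adjusted p = 0.207). On these few counts limma-voom called Rab3 lower (adjusted p = 0.034).

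The post-Golgi carriers Rab10 and Rab8 did not pass either. Rab10 had 181, 171, 178 and 165 CPM in HSD libraries, against 157, 172, 170.5 and 169 CPM in CD libraries (log2 fold change 0.056, SE 0.0495, edgeR adjusted p = 0.448). Its groups overlapped, and CD replicate 1 was the lowest library of all. Rab8 averaged 107 ± 6.21 CPM in HSD libraries and 116 ± 3.39 CPM in CD libraries (log2 fold change −0.11, edgeR adjusted p = 0.131). Rab8 was called lower by limma-voom (adjusted p = 0.0363) and by edgeR under plain library size scaling (adjusted p = 0.00191). Without both CD replicate 1 and HSD replicate 4 it was also called lower (edgeR adjusted p = 0.038). Rab40, which carries a SOCS box and acts in ubiquitin ligase complexes, averaged 16.7 ± 0.506 CPM in HSD libraries and 16.1 ± 0.177 CPM in CD libraries, a log2 fold change of 0.046 (edgeR adjusted p = 0.623).

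**Figure D2:**
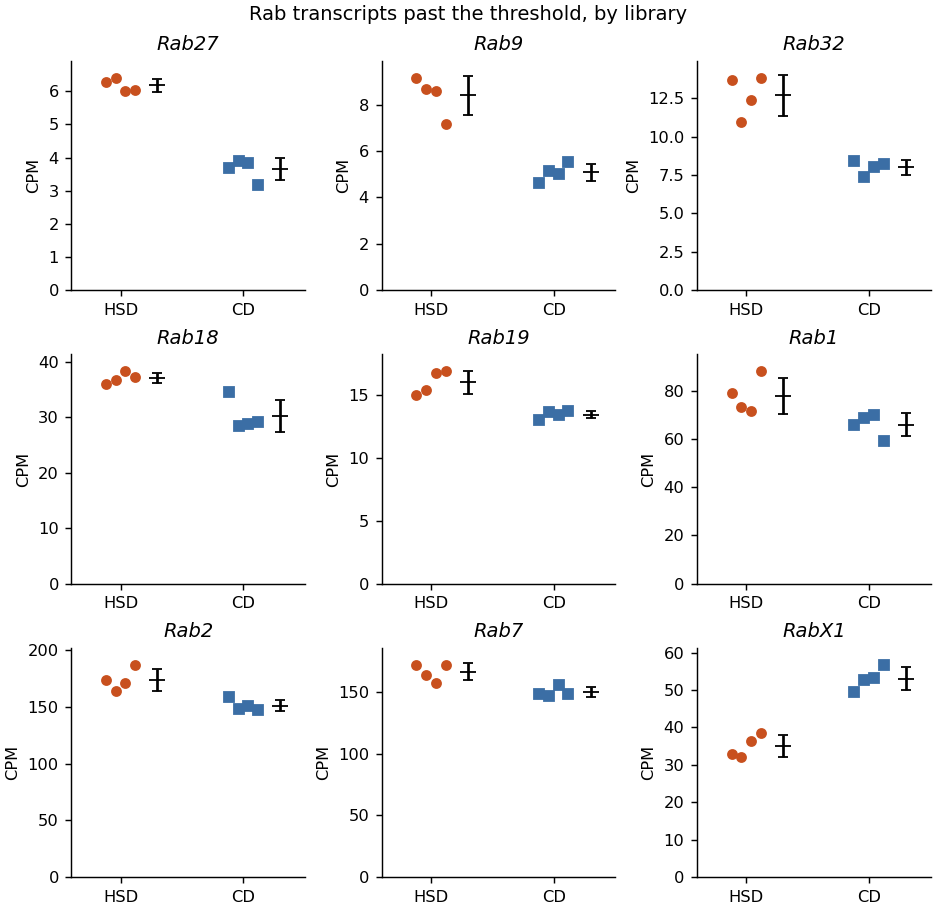
CPM of the 9 Rab transcripts past the threshold in each library, with HSD circles left of CD squares, bars for mean and SD (n = 4 each) and axes that start at 0. Rab27, Rab9 and Rab32 stand highest relative to their controls, at folds of 1.69, 1.65 and 1.59, and RabX1 is lower in every HSD library.

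Of the 7 Rabs of the endoplasmic reticulum and the Golgi 4 rose, by smaller folds, with none lower and a median log2 fold change of 0.20 over the 7. Rab18, which sits on the endoplasmic reticulum and on lipid droplets, had 36.0, 36.7, 38.3 and 37.3 CPM in HSD libraries, against 34.6, 28.5, 28.8 and 29.2 CPM in CD libraries. CD replicate 1 stood well above the other control libraries and close below the HSD libraries. The fold was 1.23 (log2 fold change 0.29, SE 0.0683, edgeR adjusted p = 0.00667). Rab19, found at the Golgi, had 15.0, 15.4, 16.7 and 16.8 CPM in HSD libraries, against 13.0, 13.6, 13.4 and 13.7 CPM in CD libraries. Its groups did not overlap, and the fold was 1.19 (log2 fold change 0.25, SE 0.0689, edgeR adjusted p = 0.0173).

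Rab1, which carries traffic from the endoplasmic reticulum to the Golgi, had 79.0, 73.3, 71.6 and 88.1 CPM in HSD libraries, against 65.9, 68.7, 69.9 and 59.3 CPM in CD libraries. HSD replicate 4 was its highest library, CD replicate 5 its lowest, and the remaining libraries of the diets lay close together. The fold was 1.18 (log2 fold change 0.24, SE 0.0738, edgeR adjusted p = 0.0285), and the call was lost without CD replicate 5 (0.0901), HSD replicate 1 (0.0696) or HSD replicate 4 (0.0685; edgeR adjusted p from 0.016 to 1.00 over all alternatives). Exons of Rab1 share 41.1% of their length with the antisense gene asRNA:CR45798, which itself had 5 counts over the HSD libraries and 0 over the CD libraries, so reads of the 2 genes cannot be told apart without strand. Rab2, which acts at the Golgi and, in flies, in the fusion of autophagosomes with lysosomes, had 173, 164, 171 and 187 CPM in HSD libraries, against 158, 148, 151 and 148 CPM in CD libraries. All HSD libraries lay above all CD libraries, with a fold of 1.15 (log2 fold change 0.20, SE 0.0513, edgeR adjusted p = 0.0116).

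The other Golgi members did not pass. Rab6, which acts within the Golgi, and Rab30 had log2 fold changes of 0.043 and −0.00076 (SE 0.0492 and 0.0913). Rab39 averaged 33.6 ± 0.861 CPM in HSD libraries and 31.4 ± 0.549 CPM in CD libraries, and its libraries did not overlap, although the log2 fold change of 0.094 missed the threshold (edgeR adjusted p = 0.196).

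**Figure D3:**
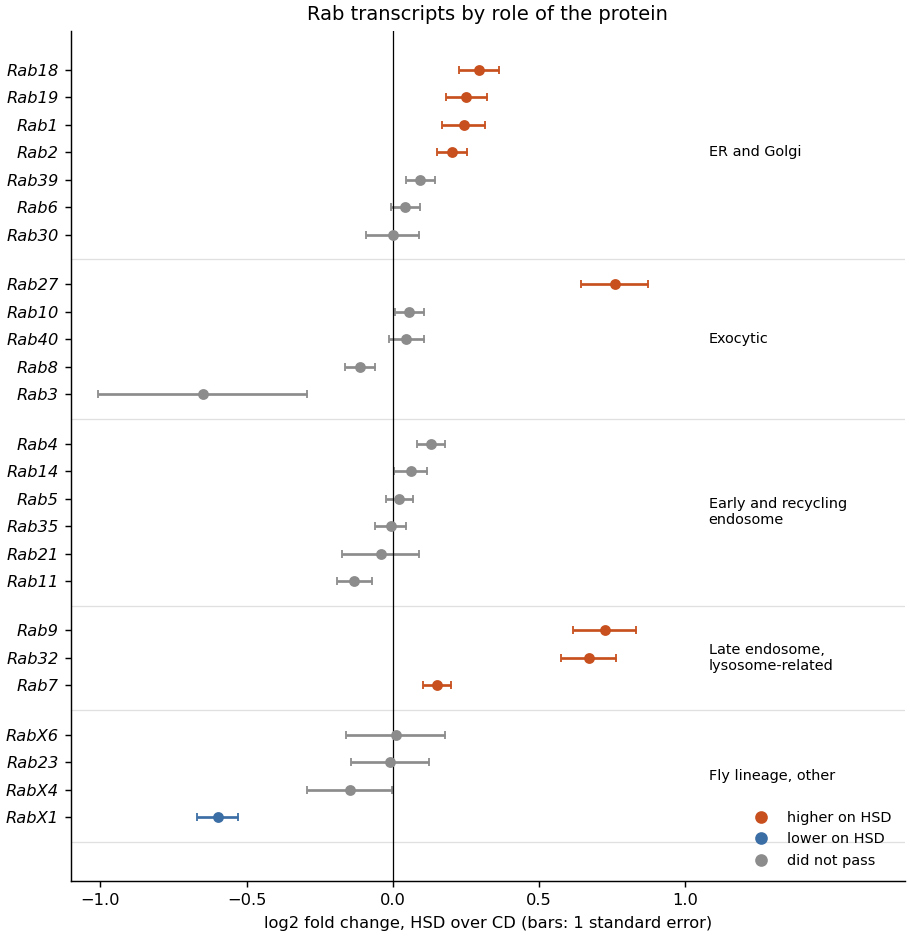
Log2 fold change (HSD over CD) of each tested Rab transcript with 1 standard error, grouped by the role of the protein; orange is higher, blue lower and grey did not pass. All 3 late endosome and lysosome-related members and 4 of 7 ER and Golgi members are higher, none of the 6 early and recycling endosome members passes, and RabX1 is lower.

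None of the 6 Rabs of the early and recycling endosome passed the edgeR test on all libraries, where Rab4 and Rab11 had an unadjusted p under 0.05. DESeq2 called Rab4 higher (adjusted p = 0.0452), and limma-voom called Rab4 higher (adjusted p = 0.0142) and Rab11 lower (adjusted p = 0.0130). Under plain library size scaling Rab5, Rab11 and Rab35 were called lower. Per kb of exonic length Rab11, Rab5 and Rab4 are among the 6 most abundant members of the family, while Rab14, Rab21 and Rab35 are not. Rab11, the Rab of the recycling endosome, had 494, 478, 489.6 and 563 CPM in HSD libraries, against 578, 545, 548 and 547 CPM in CD libraries. HSD replicate 4 lay inside the CD range, and the other 3 HSD libraries lay below it. The log2 fold change was −0.13 (SE 0.0593, edgeR adjusted p = 0.126), and the call was reached without HSD replicate 4 (edgeR adjusted p = 0.0188) and without both it and CD replicate 1 (0.00389; from 0.00141 to 1.00 over all alternatives).

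Rab5, which governs fusion of early endosomes, had 254, 253, 234 and 251 CPM in HSD libraries, against 245, 249, 249 and 234 CPM in CD libraries. The groups overlapped almost fully, and the 95% interval of the log2 fold change, by the normal approximation, ran from −0.069 to 0.11. Rab4, of the fast recycling route, had 77.0, 80.8, 74.4 and 78.1 CPM in HSD libraries, against 73.2, 69.4, 70.3 and 70.8 CPM in CD libraries. Its libraries did not overlap, but the log2 fold change of 0.13 fell short of the threshold (SE 0.0472, edgeR adjusted p = 0.061; 0.0257 without CD replicate 1, and from 0.0142 to 1.00 over all alternatives). Rab14 and Rab35, which act in phagocytosis in flies, had log2 fold changes near 0. Rab14 averaged 56.5 ± 2.48 CPM in HSD libraries and 54.2 ± 2.58 CPM in CD libraries, with an interval of −0.048 to 0.17. Rab35 averaged 140.5 ± 7.76 CPM in HSD libraries and 141 ± 5.45 CPM in CD libraries, with an interval of −0.11 to 0.095. Rab21, an early endosomal Rab linked to integrin traffic, averaged 10.8 ± 1.65 CPM in HSD libraries and 11.1 ± 1.87 CPM in CD libraries (log2 fold change −0.041, SE 0.132).

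RabX1, a Rab of the fly lineage, was the only member called lower. It had 32.9, 32.1, 36.4 and 38.6 CPM in HSD libraries, against 49.3, 52.7, 53.2 and 56.7 CPM in CD libraries. Every HSD library lay more than 10 CPM below every CD library. Its level was 0.660 times that of the control diet (log2 fold change −0.60, SE 0.0696, edgeR adjusted p = 4.04e-05), the smallest p of the family. The gene lies on 2R from 23519839 to 23523613 in dm6, and no other annotated exon overlaps it. Of the rest, Rab23, known for planar polarity in the wing, RabX4 and RabX6 had log2 fold changes of −0.0097, −0.15 and 0.0091 with standard errors from 0.133 to 0.168, on 83 to 175 counts per library. Exons of RabX6 share 36.2% of their length with Vti1a on the opposite strand. Those of RabX4 share 9.25% with Kaz on the same strand, a gene at 38.7 CPM in HSD libraries and 35.3 CPM in CD libraries. Rab9D had 2, 2, 0 and 0 counts in HSD libraries, against 1, 2, 1 and 4 counts in CD libraries, too few for a fold.

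Rab27, Rab9, Rab32 and RabX1 also exceeded a change of 1.2-fold beyond their error (edgeR glmTreat adjusted p = 0.00265, 0.00269, 0.00222 and 0.000891), which 9.23% of all tested genes did. They were called in the same direction under all 18 alternative fits. The 5 other rises, Rab1, Rab2, Rab7, Rab18 and Rab19, did not pass this 1.2-fold test. They also did not pass in an edgeR fit with a block for shared replicate numbers (adjusted p from 0.131 to 0.284). Nor did they pass under plain library size scaling. With that scaling the median of all genes moved by −0.16. It called 690 genes higher and 3161 lower, where TMM gave 1128 higher and 912 lower. On that scale 3 members were higher (Rab9, Rab27 and Rab32) and 5 lower (Rab5, Rab8, Rab11, Rab35 and RabX1), so each direction given here is relative to the TMM scale.

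**Figure D4:**
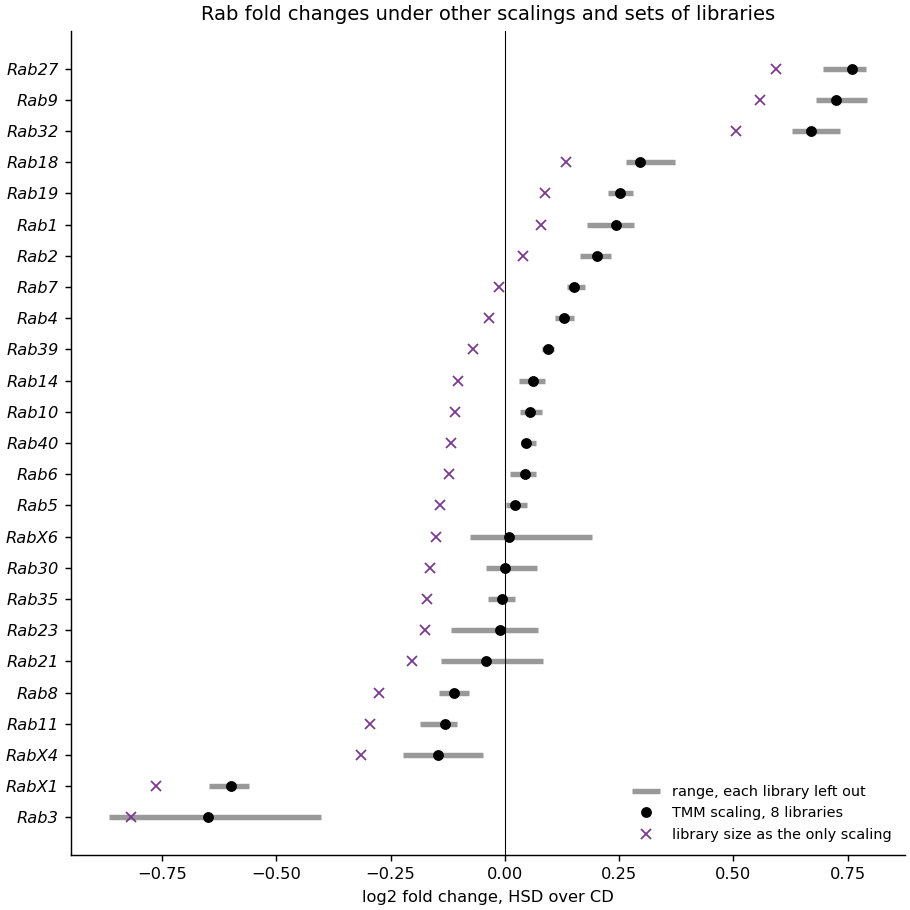
Log2 fold change (HSD over CD) of the 25 tested members on the TMM scale (dots), its range when each library is left out in turn (grey bars), and its value under plain library size scaling (crosses). Rab27, Rab9 and Rab32 stay above 0 and RabX1 below 0 throughout, while Rab7 moves to −0.013 under plain library size scaling.

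Shares within the family do not depend on how libraries are scaled, but a lower share of one member raises those of the others. A higher share is therefore not by itself a higher level. In CPM without TMM scaling Rab7 averaged 157 ± 5.99 in HSD libraries and 158 ± 6.30 in CD libraries. On the same measure Rab2 averaged 164 ± 9.57 in HSD libraries and 160 ± 1.40 in CD libraries. Rab11 made up 24.9 ± 0.966% of Rab counts in HSD libraries and 27.5 ± 0.527% in CD libraries. RabX1 made up 1.72 ± 0.112% in HSD libraries and 2.63 ± 0.182% in CD libraries. Rab2 held 8.55 ± 0.181% in HSD libraries and 7.51 ± 0.168% in CD libraries, and Rab7 8.18 ± 0.242% in HSD libraries and 7.44 ± 0.201% in CD libraries (SD, n = 4 each). Rab9 made up 0.415 ± 0.0530% in HSD libraries and 0.253 ± 0.0209% in CD libraries. For 12 members, the 9 called ones with Rab4, Rab8 and Rab11, the shares of the diets were fully separated, 9 higher and 3 lower (exact permutation test, two-sided p = 0.0286 for each, the smallest that 70 regroupings allow). Adjusted over the 25 members these p-values were 0.0595, so none passed in this exact test. At this smallest p a member could pass the adjustment only if most of the members reached it too. The test therefore cannot decide on any single member.

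Regulators of the Rab cycle were counted from lists of symbols. No member of the group of Gdi, Rep and the prenylation genes RabGGTa, RabGGTb and temp was called by edgeR on all libraries (5 tested; Gdi alone had an unadjusted p under 0.05). In this list 1 gene was called lower by DESeq2, 1 by limma-voom and 1 by edgeR without both CD1 and HSD4, and 4 under plain library size scaling. Gdi averaged 527 ± 23.5 CPM in HSD libraries and 578 ± 24.2 CPM in CD libraries (log2 fold change −0.13, edgeR adjusted p = 0.0843), and its HSD libraries all lay below its CD libraries. Of 27 tested GEF and TRAPP genes 1 rose and 2 fell. The rise was spri, a Rab5 exchange factor of the RIN family, at 62.7 ± 5.92 CPM in HSD libraries and 46.1 ± 5.52 CPM in CD libraries (1.36-fold, edgeR adjusted p = 0.00282). The falls were Rich, an exchange factor for Rab6 (log2 fold change −0.19, edgeR adjusted p = 0.0135), and Sbf, an exchange factor for Rab21 (−0.22, edgeR adjusted p = 0.0286). The Rab7 exchange factors Mon1 and Ccz1 had log2 fold changes of 0.0021 and −0.037, and claret (ca), which acts with Rab32 in eye pigmentation, one of −0.066.

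Of 17 tested GAP genes, wkd rose and TBC1D5 fell. The gene wkd, whose product acts on Rab35 in tracheal cells, averaged 14.5 ± 1.10 CPM in HSD libraries and 11.2 ± 0.752 CPM in CD libraries (1.29-fold, edgeR adjusted p = 0.00523), and TBC1D5, a Rab7 GAP bound to retromer in mammals, averaged 22.5 ± 0.772 CPM in HSD libraries and 27.4 ± 2.68 CPM in CD libraries (log2 fold change −0.29, edgeR adjusted p = 0.0119). Exons of TBC1D5 share 29.9% of their length with Su(var)3-7 on the opposite strand. Of 41 effectors and tethers 3 rose and 2 fell. The largest rise was btsz, a synaptotagmin-like protein whose mammalian relatives bind Rab27, at 26.5 ± 2.28 CPM in HSD libraries and 14.7 ± 1.35 CPM in CD libraries (1.80-fold, edgeR adjusted p = 1.07e-05). The Rab11 effector gene nuf averaged 149 ± 13.9 CPM in HSD libraries and 106 ± 8.68 CPM in CD libraries (1.40-fold, edgeR adjusted p = 0.000398), and Golgin84 rose 1.14-fold (edgeR adjusted p = 0.0258). The falls were Vps39, a subunit of the HOPS tether of late endosomes (log2 fold change −0.21, edgeR adjusted p = 0.0386), and ema, which acts in endosome maturation (−0.17, edgeR adjusted p = 0.0457).

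Over these 4 lists 5 of 90 tested genes were higher and 5 lower, 11.1% of them against 26.0% of all genes, with a median log2 fold change of −0.016. The falls of Sbf, Rich, Vps39 and ema and the rise of Golgin84 were lost without one or more single libraries: Sbf without CD3, CD4, CD5, HSD3 or HSD4, Rich without CD3 or HSD2, Vps39 without CD3, CD4, CD5, HSD1 or HSD3, ema without any library but CD1, and Golgin84 without CD3, CD4 or HSD1, where the number is that of the replicate. Under plain library size scaling 3 were higher and 44 lower.

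**Figure D5:**
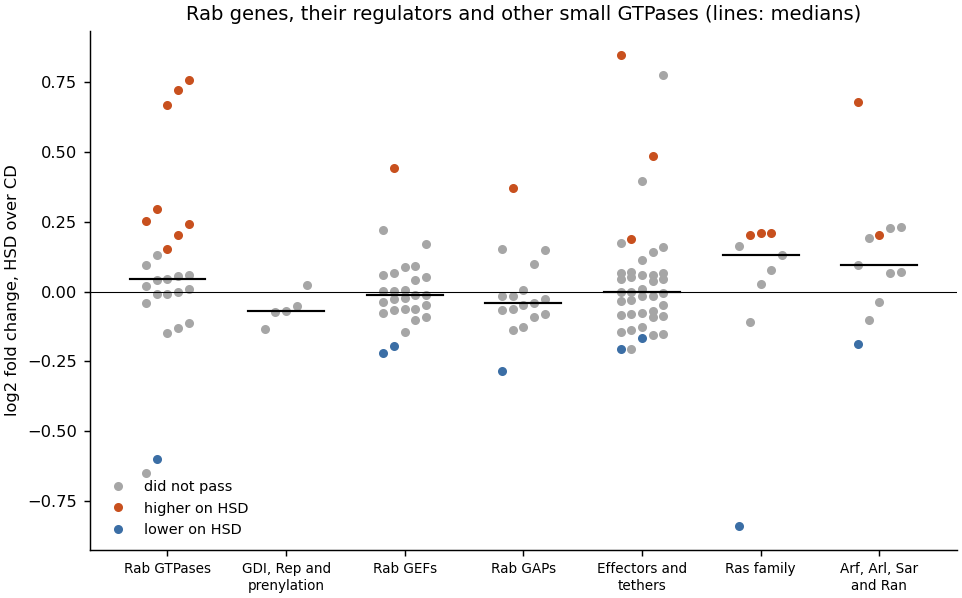
Log2 fold change (HSD over CD) of each tested gene in the Rab family, the Rab regulator and effector lists and the lists of Ras and of Arf, Arl, Sar and Ran genes, with a line at each median; orange is higher, blue lower and grey did not pass. The Rab family has 8 higher and 1 lower, and the 4 regulator and effector lists together have 5 higher and 5 lower of 90.

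Among small GTPases of the Ras family and of the Arf, Arl and Sar family with Ran, 5 of 20 tested genes were higher and 2 lower, with a median log2 fold change of 0.11. This is 35.0% of them, against 26.0% of all tested genes, of which 14.4% were higher and 11.6% lower. Arf6, which controls endocytosis and recycling at the plasma membrane, rose 1.60-fold, averaging 321 ± 28.2 CPM in HSD libraries and 201 ± 6.43 CPM in CD libraries (edgeR adjusted p = 6.00e-06). Sar1, which builds COPII coats at the endoplasmic reticulum, rose 1.15-fold (edgeR adjusted p = 0.0134; 0.0523 without CD replicate 5), as did Ras64B (1.15-fold, 0.0122), Rala (1.16-fold, 0.0158) and Rheb (1.16-fold, 0.00667). The nuclear transport GTPase Ran was lower, by a log2 fold change of −0.19 (edgeR adjusted p = 0.0226), as was the scarce gene CG8500 (−0.84, edgeR adjusted p = 0.0174), which shares 43.1% of its exonic length with CG12945 on the opposite strand. Rala was lost without CD3 or HSD1, CG8500 without CD5 or HSD3, and Ran without HSD1, HSD2 or HSD3. Under plain library size scaling Arf6 alone of the 5 rises was called.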

How the data were processed

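The deposited table gives whole-number counts per gene for 8 libraries, which the authors had not normalized. Per the submitters' processing notes the tools were Trim Galore 0.6.7, STAR 2.7.10a and featureCounts, with the dm6 build. Neither the strand setting nor the handling of multiply mapped reads is stated in those notes. Reads were 150 nt pairs after 18 PCR cycles, and larvae were kept at 25 °C, per the labels and the design text. All columns matched a sample, and replicates of one diet were further apart than sampling of reads gives (chi-square over its degrees of freedom, 7.19 at the lowest). Symbols came from a gene name table (71 of 11769 identifiers had none), and positions and exonic lengths from Ensembl 115, on the assembly that dm6 names.

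Genes were kept by filterByExpr (minimum count 10), which left 7844 genes, scaled by TMM and tested across all genes by robust quasi-likelihood with diet as the only term (edgeR 4.0.16, R 4.3.3), with Benjamini-Hochberg adjustment; an adjusted p under 0.05 was a call. The coefficient of variation between libraries, from the common dispersion of edgeR, was 0.101, and this variation may be technical. SE is the log2 fold change over the square root of F. The test was tried on simulated counts. DESeq2 1.42.0, limma-voom (limma 3.58.1), other scalings, filters and thresholds, a replicate block and leaving out libraries were alternatives; for the regulator and small GTPase lists, the filters, tools, block and thresholds among these were chosen after seeing the data. Members, lists and alternatives were chosen with earlier results of these data known. Named are all Rab members, with libraries given singly for the called and the 6 most abundant per kb, and at most 4 called genes per list and direction. One list is not reported here. No sequence is printed.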

Additional observations from a re-analysis of the deposited data

Results flagged for a closer look

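In groups of 4, a library is picked out here where its gap to the nearest other library, divided by the whole range of the group, exceeds Dixon's 95% critical value. Of 50 groups examined, 7 were picked out, where chance gives about 1 in 20, and 5 of the 7 lie in CD replicate 1. In that library Rab11 (578 CPM, with the other CD libraries from 545 to 548), Rab18 (34.6 CPM, others 28.5 to 29.2) and RabX6 (6.06 CPM, others 3.80 to 4.07) were the highest of the control diet, and Rab10 (157 CPM, others 169 to 172) and RabX4 (4.97 CPM, others 6.31 to 6.57) the lowest. Rab39 was lowest in CD replicate 5 (30.6 CPM, others 31.7 to 31.8), and Rab6 highest in HSD replicate 4 (110.3 CPM, with the other HSD libraries from 101 to 102). CD replicate 1 is also the library that stands apart over all genes, and the cause was not tested.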

How the results depend on the processing

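Of the 8 Rab members higher and 1 lower, library size as the only scaling left 3 and 5, a replicate block 3 and 1, and a test against 1.2-fold 3 and 1; limma-voom gave 4 lower and leaving out both CD1 and HSD4 gave 3 lower. Leaving out single libraries gave 6 to 9 higher and 1 to 2 lower. Over all genes (1128 higher, 912 lower) library size gave 690 and 3161, the block 587 and 248, the 1.2-fold test 504 and 220, and limma-voom 1453 lower; single libraries gave 929 to 1408 higher and 660 to 1223 lower. Regulators and effectors (5 and 5) became 3 and 44 with library size, 3 and 0 with the block, 2 and 0 at 1.2-fold, 11 and 14 with limma-voom, 8 and 13 without both libraries and 8 and 11 at a threshold of 0.1, with 9 lower in DESeq2 and 4 to 7 higher and 1 to 9 lower over single libraries. The Ras and Arf lists (5 and 2) became 1 and 5 with library size and 1 and 0 with the block or at 1.2-fold, with 1 lower under the stricter filter and 4 to 8 higher and 0 to 2 lower over single libraries.

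Signs of log2 fold changes that turned with library size were those of Rab4 (−0.034), Rab5 (−0.14), Rab6 (−0.12), Rab7 (−0.013), Rab10 (−0.11), Rab14 (−0.10), Rab39 (−0.070), Rab40 (−0.12) and RabX6 (−0.15). With the block they were Rab5 (−0.0084), Rab30 (0.072), Rab35 (0.018) and RabX6 (−0.10). With both libraries left out they were Rab23 (0.068), Rab30 (0.011) and Rab35 (0.0071), with limma-voom Rab21 (0.013) and Rab30 (0.036), and Rab30 was 0.0026 with upper quartile scaling and 0.0022 with the stricter filter. Over single libraries left out Rab21 ran from −0.14 to 0.084, Rab23 from −0.12 to 0.073, Rab30 from −0.042 to 0.069, Rab35 from −0.036 to 0.021 and RabX6 from −0.076 to 0.19. Of these, Rab7 was called under TMM scaling, Rab5 and Rab35 with library size and Rab4 in 5 alternatives. Shares of the called members also kept their direction. They were fully separated between the diets, so leaving out libraries could not have turned them, and this is no further test. Replicates 1, 3 and 4 share numbers between the diets, and the block used those 6 libraries. The deviations of same-numbered libraries correlated at −0.131, −0.074 and −0.176, and those of unlike numbers at −0.188 to 0.226. With 4 libraries per diet these values cannot decide whether a number marks a shared collection, which the labels do not say. The cause of these shifts was not tested, except that library size alone moves all genes by −0.16. Depth limits Rab3 and Rab9D.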
